A study of Mus musculus with 3 samples.

Results

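OP9-GFP is a line of mouse OP9 stromal cells that expresses green fluorescent protein, and it is described here by the genes whose RNA set it apart from both of the lines measured beside it. Those lines were OP9, the control without a transgene named in the labels, and OP9-DL, which expresses GFP together with Delta-like 1, a ligand of the Notch receptors. All 3 lines derive from the calvaria of newborn mice of the strain and genotype B6C3Fe-a/a-Csf1op/Csf1op, so the control carries the same Csf1 mutation, and all were kept untreated in aMEM with 20% FBS. Each line was measured on 1 array. The labels do not say whether OP9-GFP was a clone or a pool, nor how the genes were brought into the cells. A gene was a member where its probe's intensity on the OP9-GFP array was at least 2-fold above, or at least 2-fold below, its intensity on each of the other arrays. Members were sought among the 15581 of 23473 probes that had a value on all 3 arrays and a mean log2 intensity of at least 2.62, which is an intensity of 6.13 on a scale that puts each array at a median of 20. The members were 200 named genes, of 11359 compared and 16390 with a probe on the array, and 98 of them were higher in OP9-GFP (0.863% of the genes compared) and 102 lower (0.898%). With probes that had no single gene symbol they rested on 260 probes, 123 higher (0.789% of the probes compared) and 137 lower (0.879%).

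OP9 cells lack functional macrophage colony-stimulating factor, the product of Csf1, and are used as a feeder layer on which blood cells develop from stem cells. Stromal cells of this kind supply secreted factors, chemokines and matrix, and they can also turn into fat cells. Lines that carry GFP alone serve as the reference for lines that carry GFP and a Notch ligand, which directs blood progenitors towards T cells.

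Because the members were picked by their values, the differences below describe these 3 arrays, and neither a test nor an error can be given for them. The function lists were chosen with earlier results of these data known. A list's share of members, set beside that of all genes, is therefore a description only. Both comparisons use the same OP9-GFP array, so a deviation of that array alone would appear in both. What differs between the lines cannot be told apart from what differs between the cultures and the arrays. Replicates, which would give the spread, were not among the samples.

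The label of OP9-GFP as a stromal line without added Delta-like 1 was set against its genes. The gene of the ligand itself, Dll1, read 14.0 in OP9, 20.5 in OP9-GFP and 333.3 in OP9-DL. Of 21 mesenchymal stromal markers measured, 17 reached the limit of 6.13 in OP9-GFP, 15 in OP9 and 15 in OP9-DL. That limit is a low bar, since 15581 of 20775 probes with a value on all 3 arrays reached it by their mean. The summed intensity of the stromal markers was 68113.0 in OP9, 68166.8 in OP9-GFP and 73459.2 in OP9-DL. Most of each sum came from Vim, S100a4 and Fn1, so the sums say little of the other markers. Of 16 stromal markers compared, 2 were at least 2-fold higher than in OP9 (5.04% of all genes) and 1 lower (6.81% of all genes). The lower one was Pdgfra, with 800.6 in OP9, 166.1 in OP9-GFP and 127.1 in OP9-DL. Stromal markers Thy1, Eng, Nt5e and Dcn stayed below the limit on all 3 arrays. Of 31 markers of blood cells other than mast cells, 12 reached the limit in OP9-GFP, 13 in OP9 and 15 in OP9-DL. These blood cell markers summed to 298.4 in OP9-GFP, against 302.6 in OP9 and 413.1 in OP9-DL. Ptprc, the CD45 gene of blood cells, had 2.5 in OP9-GFP. The mast cell list summed to 207.1, 163.6 and 975.7 in the order OP9, OP9-GFP, OP9-DL, and Tpsab1, a mast cell tryptase gene, accounted for 20.6, 9.0 and 818.9 of these. Kit had 1.6 in OP9 and was blank in both OP9-GFP and OP9-DL. The sums of the endothelial (126.7, 139.6 and 140.9), epithelial (383.9, 372.9 and 398.1) and neural lists (177.0, 176.5 and 180.2) lay close together on the 3 arrays. Within the epithelial list, Krt15 had 92.1, 33.9 and 37.8 and was the 1 gene of 7 compared that lay 2-fold from OP9. Skeletal muscle markers summed to 90.1, 130.8 and 345.9, largely through Acta1 with 7.5, 50.7 and 226.0. The part of other cells in the members' differences was not tested.

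**Figure D1:**
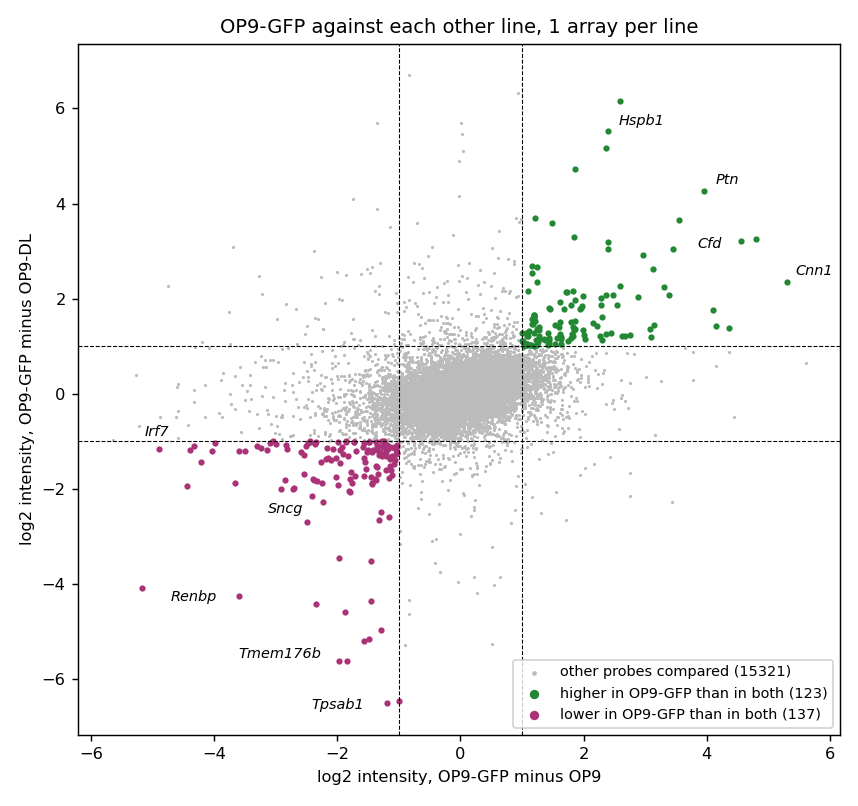
Difference in log2 intensity between OP9-GFP and OP9 (horizontal axis) and between OP9-GFP and OP9-DL (vertical axis), 1 point per compared probe, with dashed lines at 2-fold. The 123 probes higher in OP9-GFP than in both lie in the upper right corner and the 137 lower ones in the lower left, and both axes contain the same OP9-GFP array.

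OP9-GFP had fewer such probes than the other lines, whose arrays gave 963 for OP9 (620 higher, 343 lower) and 380 for OP9-DL (151 higher, 229 lower). Of the OP9-GFP members, 25 higher and 35 lower probes had no single symbol. Each named member gene rests on 1 probe, since none of the 129 compared genes with several probes was a member. The smaller of the 2 fold differences had a median of 2.38 and a maximum of 15.6 among the higher probes, and a median of 2.31 and a maximum of 17.0 among the lower ones. It reached 4-fold in 20 higher and 8 lower probes. OP9 and OP9-DL lay within 2-fold of each other in 93 of the 123 higher members (75.6%) and in 93 of the 137 lower members (67.9%), against 88.8% of all probes compared. Where they did not, OP9-DL was the nearer to OP9-GFP in 18 of the higher probes and 29 of the lower ones. Higher members had intensities of 11.8 to 2478.4 in OP9-GFP, with a median of 77.1, and 86 of them reached the limit on all 3 arrays. Lower members had 1.4 to 1259.5, with a median of 19.3, and 107 reached the limit on all 3, so the folds of the rest lean on at least 1 dim reading. At the threshold itself, Psmg3 was just inside with 494.8, 1009.6 and 500.1, and Zfp24 just outside with 23.5, 46.7 and 21.1. Among lower genes Xmr was just inside with 7.2, 3.6 and 314.5, and Ugdh just outside with 1563.4, 781.4 and 1552.3.

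Promoters of 5 members of stress and redox pathways, higher or lower in OP9-GFP, are shown, each with a match to the motif printed beside it. Windows of the other members are not shown, and some of them also held matches to these motifs. Ddit3 held no C/EBP-ATF match but 1 AP-1 match, and Akr1c13, Gstt3 and Ephx1 held no antioxidant response match. Capitals mark matches, on either strand, to the 1 motif named beside each gene, and matches to other motifs stay in lower case. The letters come from RefSeq, build GRCm38.p6, and each window covers 300 bases, 5′ to 3′, most of them before the annotated start.
Hspb1, higher in OP9-GFP, heat shock motif GAANNTTC, chr5:135887669-135887968, + strand: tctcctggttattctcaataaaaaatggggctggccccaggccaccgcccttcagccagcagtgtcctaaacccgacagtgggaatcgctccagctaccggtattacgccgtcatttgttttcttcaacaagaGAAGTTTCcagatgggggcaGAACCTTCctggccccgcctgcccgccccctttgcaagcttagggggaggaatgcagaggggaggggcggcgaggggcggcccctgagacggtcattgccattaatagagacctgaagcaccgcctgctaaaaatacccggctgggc
Srxn1, higher in OP9-GFP, AP-1 motif TGANTCA, chr2:152105274-152105573, + strand: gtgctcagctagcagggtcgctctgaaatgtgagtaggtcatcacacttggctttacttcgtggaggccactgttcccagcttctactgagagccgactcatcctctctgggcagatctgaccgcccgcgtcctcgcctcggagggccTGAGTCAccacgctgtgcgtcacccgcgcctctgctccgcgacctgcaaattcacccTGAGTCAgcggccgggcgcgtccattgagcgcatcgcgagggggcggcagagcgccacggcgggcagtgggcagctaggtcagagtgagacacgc
Gclm, higher in OP9-GFP, antioxidant response motif TGACNNNGC, chr3:122245307-122245606, + strand: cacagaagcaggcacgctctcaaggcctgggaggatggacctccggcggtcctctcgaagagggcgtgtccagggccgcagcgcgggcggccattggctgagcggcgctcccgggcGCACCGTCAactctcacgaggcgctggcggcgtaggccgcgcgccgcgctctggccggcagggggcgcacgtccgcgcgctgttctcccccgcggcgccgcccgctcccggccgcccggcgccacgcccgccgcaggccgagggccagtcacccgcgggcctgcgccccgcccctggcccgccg
Maff, higher in OP9-GFP, antioxidant response motif TGACNNNGC, chr15:79346371-79346670, + strand: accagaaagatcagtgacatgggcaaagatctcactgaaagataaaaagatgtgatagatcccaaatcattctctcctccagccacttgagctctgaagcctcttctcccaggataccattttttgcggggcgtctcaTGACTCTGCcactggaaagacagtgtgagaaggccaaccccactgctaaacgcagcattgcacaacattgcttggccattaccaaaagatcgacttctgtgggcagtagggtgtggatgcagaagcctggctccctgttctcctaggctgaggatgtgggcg
Chac1, lower in OP9-GFP, C/EBP-ATF motif TGATGNAA, chr2:119350992-119351291, + strand: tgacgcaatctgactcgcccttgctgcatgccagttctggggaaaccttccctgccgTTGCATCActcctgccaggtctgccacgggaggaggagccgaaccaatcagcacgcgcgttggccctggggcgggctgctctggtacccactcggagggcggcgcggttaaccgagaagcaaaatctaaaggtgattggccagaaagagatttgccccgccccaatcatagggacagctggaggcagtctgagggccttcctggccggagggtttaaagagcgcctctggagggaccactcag

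The window of Hspb1 held 2 heat shock matches, which began 117 and 97 bases before the start, and that of Srxn1 held 2 AP-1 matches, at 102 and 45 bases. Srxn1 also held 1 match to the antioxidant response motif, on the opposite strand and not in capitals. The capitals in Gclm and Chac1 are the motif on the opposite strand. A window was listed for 79 higher members, 90 lower members and 9160 of the genes compared, and the first listed window of each gene was searched on both strands. The antioxidant response motif TGACNNNGC occurred in 21.5% of the higher members' windows, 8.89% of the lower members' and 14.6% of all. The AP-1 motif TGANTCA occurred in 7.59%, 11.1% and 5.8% in the same order, and the heat shock motif GAANNTTC in 6.33%, 4.44% and 5.62%. For the TATA box (TATAAA) the shares were 12.7%, 8.89% and 8.57%, and for the CCAAT box (CCAAT) 41.8%, 41.1% and 38.4%. E2F motifs, TTTGGCGC or TTTCCCGC, were in 2.53%, 2.22% and 2.98%. TGACGTCA, the cyclic AMP response element, was in none of the members' windows and in 3.05% of all. Searched after the values were seen, the CArG box of serum response factor was in 2.53%, 3.33% and 1.36%, and TGATGNAA in 0% of the higher members' windows, 2.22% of the lower members' and 2.27% of all. These matches describe letters in the windows and say nothing of factor binding.

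Ptn was furthest above both other lines among the named genes. It encodes pleiotrophin, a heparin-binding growth factor made by marrow stroma. Its intensity was 16.8 in OP9, 261.9 in OP9-GFP and 13.7 in OP9-DL, so it was 15.6-fold and 19.1-fold higher, and the other lines lay near each other. Among 57 growth factor and receptor genes compared, Ptn was the only one higher than both (1.75%, against 0.863% of all genes), and none was lower. Cfd, which encodes adipsin, a complement protease made by fat cells, had 17.0 in OP9, 399.5 in OP9-GFP and 43.1 in OP9-DL. Serping1, the inhibitor of the first complement component, had 4.3, 47.0 and 5.7 in the same order, with only OP9-GFP above the dim limit. Cfd and Serping1 were the members among 20 complement and coagulation genes. Lrg1, a secreted leucine-rich glycoprotein, had 4.7, 24.7 and 3.0, and Cthrc1, a secreted collagen triple helix repeat protein, had 5.9, 31.0 and 3.4. Both of these were above the limit in OP9-GFP alone.

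Of 47 genes on the chemokine and cytokine list, 5 were higher than both (10.6%, against 0.863% of all genes) and 2 lower (4.26%, against 0.898%). Ccl2 and Ccl7, neighbours in the gene order that encode attractants of monocytes, were high in OP9-GFP and intermediate in OP9-DL. Ccl2 had 298.6 in OP9, 1831.2 in OP9-GFP and 789.3 in OP9-DL, and Ccl7 had 230.0, 1100.8 and 476.7. Cxcl5, an attractant of neutrophils, had 25.4, 81.8 and 23.7, so OP9 and OP9-DL did not differ by 2-fold there. Tslp, a cytokine that acts on dendritic and lymphoid cells, had 3.8, 16.9 and 6.0 and was above the limit in OP9-GFP only. Ptgs2, the inducible cyclooxygenase that starts prostaglandin synthesis, had 13.9, 88.7 and 38.4. It is no cytokine but was placed on this list as well as on the prostaglandin list, and counts in both. Tbxas1, the thromboxane synthase gene, had 4.3 in OP9, 36.9 in OP9-GFP and 16.2 in OP9-DL. Prxl2b, which encodes a prostaglandin F synthase, ran the other way with 392.2, 159.3 and 372.2. Thus 2 of 18 prostaglandin and leukotriene genes were higher (11.1%, against 0.863% of all genes) and 1 was lower (5.56%, against 0.898%). Il6, the interleukin-6 gene, fell just short of the threshold with 88.0, 174.7 and 13.7. The 2 lower cytokine genes were Ccl5, with 749.6, 46.0 and 105.1, and Il18, with 284.5, 18.0 and 36.7.

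Adipocyte genes had members in both directions, with 3 of 50 higher than both (6.0%, against 0.863% of all genes) and 2 lower (4.0%, against 0.898%). Adipoq encodes adiponectin, a hormone of fat cells, and had 29.0 in OP9, 495.9 in OP9-GFP and 146.7 in OP9-DL. Cfd is on this list too. Cd36, a fatty acid uptake receptor, had 182.8, 422.1 and 146.7. Dlk1, also called Pref-1 and known to hold back fat cell formation, was lower, with 8.1 in OP9, 2.2 in OP9-GFP and 53.2 in OP9-DL. Dlk1 belongs to the Notch list as well, where it was the only member among 35 genes (2.86%, against 0.898% of all genes). Cideb, a lipid droplet protein, had 23.0, 3.5 and 14.1. The list's median log2 difference was -0.03 against OP9 and 0.05 against OP9-DL, near the 0.02 and 0.03 of all genes, so the named genes stood out while the list did not shift.

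**Figure D2:**
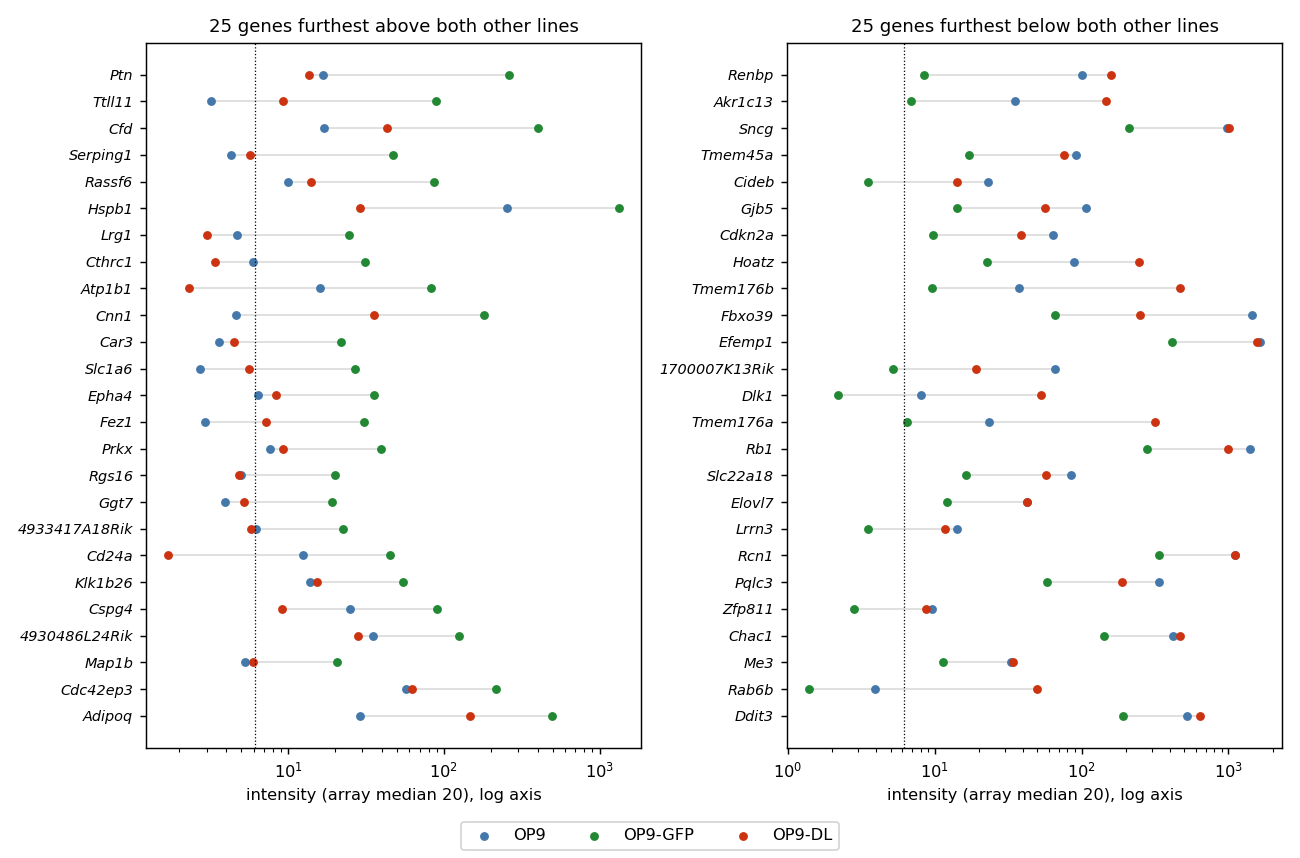
Intensity on each of the 3 arrays for the 25 genes furthest above (left) and the 25 furthest below (right) both other lines, ordered by the smaller log2 difference, on log axes with the dim limit of 6.13 dotted. Ptn leads the left panel and Renbp the right one, and several genes, such as Serping1 and Dlk1, have a reading under the limit.

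Of 39 smooth muscle and contractile genes, 3 were higher in OP9-GFP than in both lines (7.69%, against 0.863% of all genes) and none was lower. Calponin 1, encoded by Cnn1, binds actin in smooth muscle. Cnn1 had 4.6 in OP9, 181.2 in OP9-GFP and 35.7 in OP9-DL. Cspg4, the NG2 proteoglycan of pericytes, had 25.1, 90.0 and 9.1, and Fhl1, a LIM domain protein of muscle, had 8.9, 36.3 and 16.4. The main smooth muscle actin gene, Acta2, was no member, with 4435.6 in OP9, 27256.5 in OP9-GFP and 27654.6 in OP9-DL, so the lines with GFP were level there. The list's median log2 difference was 0.57 against OP9 and 0.28 against OP9-DL. Against OP9 alone, 15 of the 39 were at least 2-fold higher (5.04% of all genes), and against OP9-DL alone 4 were higher (3.07% of all genes) and 2 lower (2.25% of all genes). Ankrd1, a target gene of the mechanosensitive cofactor YAP, had 18.4, 379.0 and 144.8. It was the only member among 38 TGF-beta, BMP and YAP response genes (2.63%, against 0.863% of all genes). Other genes of the cytoskeleton among the higher members were Cdc42ep3, a Cdc42 effector, with 56.7, 217.0 and 62.7, Map1b, a microtubule-associated protein, with 5.3, 20.5 and 5.9, and Ttll11, of the tubulin polyglutamylase family, with 3.2, 88.8 and 9.3. Map1b was above the dim limit in OP9-GFP alone, and Ttll11 was under it in OP9.

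Of 50 matrix glycoprotein, proteoglycan and basement membrane genes, 3 were higher than both (6.0%, against 0.863% of all genes) and 1 was lower (2.0%, against 0.898%). Tnc encodes tenascin C, an adhesion-modulating glycoprotein, and had 9.0 in OP9, 159.6 in OP9-GFP and 59.5 in OP9-DL. Thbs1, the thrombospondin 1 gene, had 216.6, 590.6 and 172.5, and Nid2, a basement membrane nidogen, had 64.5, 143.9 and 52.1. Efemp1, the gene of fibulin 3, was that lower member, and there OP9 and OP9-DL were nearly level, with 1638.5, 413.6 and 1564.4. No collagen or collagen-processing gene of 36 compared was a member. Within that list P4ha2, a prolyl hydroxylase subunit, was highest by the smaller difference with 99.2, 219.3 and 118.5, and Col6a1 lowest with 5506.3, 1684.2 and 3242.8. None of 51 proteases and inhibitors was a member either, and Fap, with 13.8, 23.8 and 7.3, and Ctsd, with 2530.2, 1175.0 and 1750.6, were its ends. At the shares of all genes, lists of 36 and 51 genes would hold few or no members.

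At the cell surface, 3 of 56 junction and adhesion genes were higher than both (5.36%, against 0.863% of all genes) and 2 lower (3.57%, against 0.898%). Cd24a, a small sialoglycoprotein, had 12.4 in OP9, 44.8 in OP9-GFP and 1.7 in OP9-DL, though near-identical copies of this gene make the probe's target uncertain. Fat4, a large cadherin, had 5.3, 16.4 and 7.2, and Nectin3, an immunoglobulin-type adhesion protein, had 121.1, 350.2 and 168.4. Gjb5, a connexin of gap junctions, was lower with 106.4, 14.1 and 56.6, as was Alcam, an adhesion molecule, with 13.9, 5.1 and 58.4. Epha4, a receptor for ephrins, had 6.4, 35.6 and 8.4. Atp1b1, the beta subunit of the sodium pump, had 16.0, 82.7 and 2.3. Slc1a6, a glutamate transporter that the solute carrier list left out, had 2.7, 26.7 and 5.6, above the dim limit in OP9-GFP alone. Of 68 solute carrier genes on the list, 1 was higher (1.47%, against 0.863% of all genes) and 2 were lower (2.94%, against 0.898%). Slc9a3r1, a scaffold for transporters, was higher with 4.4, 22.6 and 9.5. Slc22a18, with 85.0, 16.3 and 57.5, and Slc16a9, with 20.4, 8.0 and 23.3, were lower. Tfrc, the transferrin receptor for iron uptake, had 49.4, 176.5 and 70.1. It was the 1 member among 17 reference genes (5.88%, against 0.863% of all genes). Nes, the nestin gene on the neural marker list, had 8.2, 18.7 and 5.9.

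Genes that hold back the cell cycle were among the lower members. Cdkn2a, whose locus encodes the growth inhibitors p16INK4a and p19ARF, had 63.7 in OP9, 9.8 in OP9-GFP and 38.8 in OP9-DL. Rb1, the retinoblastoma protein that restrains entry into DNA synthesis, had 1404.6, 279.3 and 992.9. Trp53inp1, a target of p53, had 86.3, 14.3 and 33.3, and Mdm2, the ubiquitin ligase that degrades p53 and is itself a p53 target, had 346.1, 169.3 and 355.3, a difference that fell short of 2-fold under median scaling (-0.95 on the log2 scale). These 4 of 30 p53 response and growth arrest genes (13.3%, against 0.898% of all genes) were lower than both and none was higher. The list medians were -0.45 against OP9 and -0.44 against OP9-DL on the log2 scale. Lower by 2-fold against OP9 alone were 8 genes of this list (6.81% of all genes), and 8 against OP9-DL alone (2.25% of all genes).

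Of 60 DNA replication and nucleotide supply genes, 2 were higher than both (3.33%, against 0.863% of all genes) and none lower. Tyms, the thymidylate synthase gene, had 594.4 in OP9, 1437.8 in OP9-GFP and 546.5 in OP9-DL, and Chaf1b, a histone chaperone subunit of replicating chromatin, had 61.0, 144.5 and 70.6. Chaf1b was at the edge of the threshold, and under quantile, median and lowess scaling its smaller log2 difference was 0.992, 0.99 and 0.987, short of 2-fold. The list's median log2 difference was 0.83 against OP9 and 0.34 against OP9-DL. In this list 19 genes were at least 2-fold higher than in OP9 (5.04% of all genes) and 5 than in OP9-DL (3.07% of all genes), and none was at least 2-fold lower in either comparison. Some lay below OP9-DL by less than that, such as Prim1, a primase subunit, with 602.8, 981.5 and 1495.1. None of 52 mitosis and spindle genes was a member, against 0.863% higher and 0.898% lower over all genes, but their medians were 0.55 and 0.51. Nek2, a mitotic kinase, was highest of them with 242.5, 421.8 and 226.9. Outside the lists, Lmnb1, the nuclear lamin B1 gene, had 66.8, 179.3 and 74.1, and Deptor, an inhibitor of the kinase mTOR, had 344.2, 933.6 and 267.6; both were chosen after their values were seen. Whether the cultures differed in density or growth at harvest is not in the labels, and its part in these values was not tested.

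**Figure D3:**
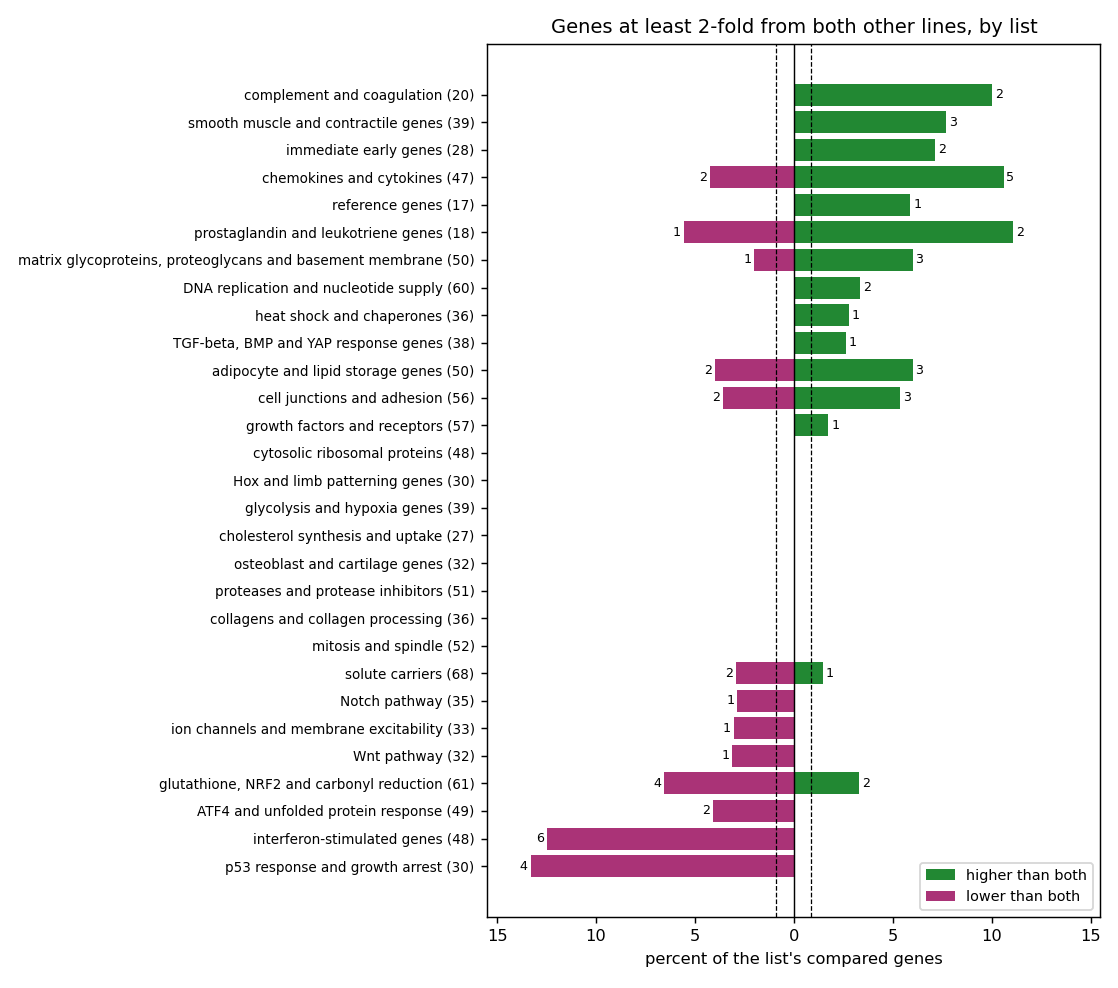
Percent of each function list's compared genes (number in brackets) that were at least 2-fold higher (right) or lower (left) in OP9-GFP than in both other lines, with the count at each bar. Dashed lines mark the same percent over all genes, 0.863% higher and 0.898% lower. Interferon and p53 genes extend furthest left, with 6 and 4 genes.

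Interferon-stimulated genes, which cells switch on in antiviral responses, gave more lower members than any other list. Below both lines were 6 of 48 (12.5%, against 0.898% of all genes). Irf7, the transcription factor that amplifies interferon production, had 424.4 in OP9, 14.2 in OP9-GFP and 31.6 in OP9-DL. Stat2, part of the factor that interferon activates, had 355.0, 31.6 and 72.5. Oas1a, an oligoadenylate synthetase, had 1299.0, 64.6 and 138.0. In all of these OP9 was far above the other lines and OP9-GFP was the lowest. Samd9l had 2655.8, 280.7 and 618.6, Trim25, a ubiquitin ligase of RNA sensing, had 380.8, 38.6 and 82.2, and Adar, the RNA-editing enzyme, had 83.6, 9.5 and 21.6. Against OP9 the list's median log2 difference was -3.11, with 41 of 48 genes at least 2-fold lower (6.81% of all genes). Against OP9-DL the median was -0.27, with 7 genes lower (2.25% of all genes) and 4 higher (3.07% of all genes), so the distance to OP9-DL was small beside that to OP9. Ccl5 and Il18 on the cytokine list followed the same order of lines. So did Trem2, a receptor of myeloid cells chosen here after its values were seen, with 530.1, 28.6 and 77.7.

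Heat shock genes had 1 higher member and ATF4 and unfolded protein response genes 2 lower ones. Hspb1, the small heat shock protein HSP27, had 253.4 in OP9, 1332.0 in OP9-GFP and 28.9 in OP9-DL, which is 5.26-fold and 46.1-fold higher. Hspb1 was the only member among 36 heat shock and chaperone genes (2.78%, against 0.863% of all genes), whose medians were 0.26 and -0.04. Ddit3 encodes CHOP, a transcription factor of endoplasmic reticulum stress, and was lower, with 522.1, 190.0 and 640.7. Chac1, a glutathione-degrading enzyme downstream of ATF4 and CHOP, had 417.1, 141.6 and 470.5, nearly level in the other lines as Ddit3 was. These were 2 of 49 ATF4 and unfolded protein response genes (4.08%, against 0.898% of all genes). The list's medians were 0.10 against OP9 and -0.35 against OP9-DL.

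Redox genes included members in both directions. Srxn1, sulfiredoxin, which restores oxidised peroxiredoxins, had 183.3 in OP9, 737.4 in OP9-GFP and 313.2 in OP9-DL. Gclm, the modifier subunit of the enzyme that limits glutathione synthesis, had 414.6, 1109.7 and 543.8, and its smaller log2 difference fell short of 2-fold under median (0.985) and lowess scaling (0.998). Both are known targets of the transcription factor NRF2, but the 4 lower members stand on the same list of glutathione, NRF2 and carbonyl reduction genes. NRF2 activity was not tested. Ephx1, the microsomal epoxide hydrolase, was lower with 2018.5, 612.7 and 1233.0. Aldh3a1, an aldehyde dehydrogenase, had 496.9, 58.6 and 119.2, and Gstt3, a glutathione transferase, had 154.5, 36.7 and 82.5. Akr1c13, an aldo-keto reductase with near-identical relatives that the probe may not separate, had 35.0, 6.9 and 147.2. The list of 61 genes thus held 2 higher members (3.28%, against 0.863% of all genes) and 4 lower (6.56%, against 0.898%). Its medians were -0.15 and 0.14. Maff, a small Maf protein that pairs with NRF2 and is itself induced early after stimulation, had 56.9, 264.2 and 97.7. Spry1, a feedback inhibitor of growth factor signalling, had 9.5, 33.0 and 14.6. Maff and Spry1 were the 2 members among 28 immediate early genes (7.14%, against 0.863% of all genes). That list's medians were 0.40 and 0.15.

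**Figure D4:**
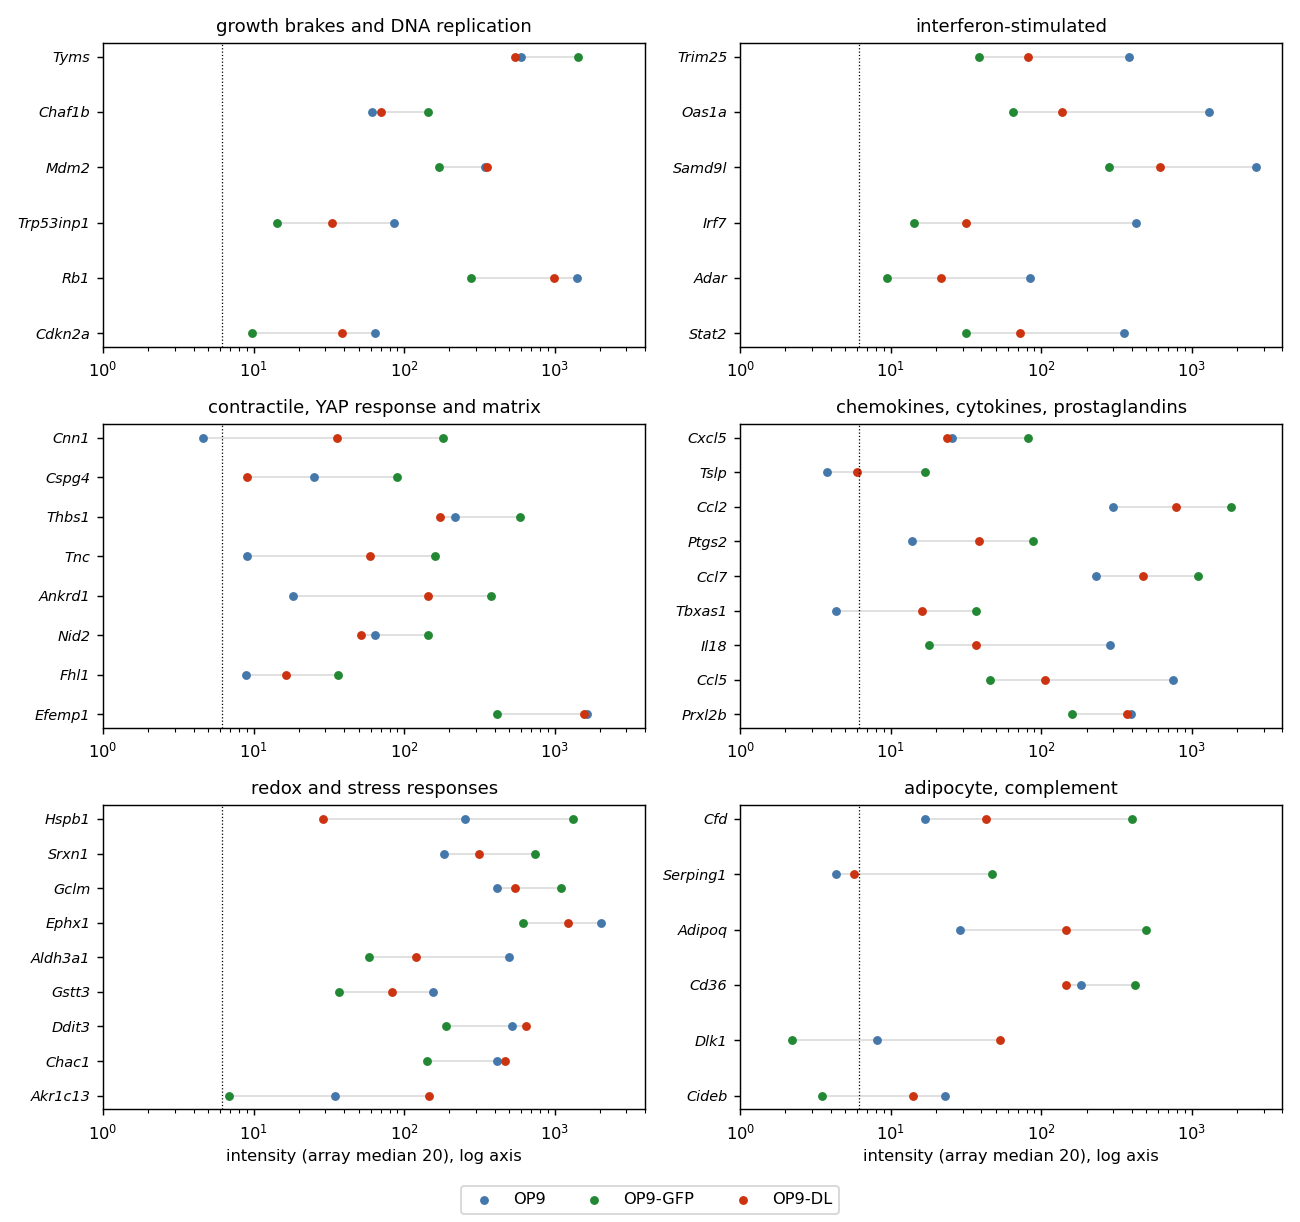
Intensity of list members, on log axes and for each line, where the gene set OP9-GFP apart, grouped by function, with the dim limit of 6.13 dotted. In the interferon panel OP9 is highest and OP9-GFP lowest for each gene, while Efemp1, Mdm2 and Prxl2b are nearly level in the other two lines.

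Further genes low in OP9-GFP belonged to no single function. Renbp, a sugar epimerase that was named for its binding to renin, had the largest smaller fold among the named lower genes, with 101.3 in OP9, 8.4 in OP9-GFP and 159.6 in OP9-DL, or 12.1-fold and 19.0-fold. Sncg, the gamma-synuclein gene, had 984.2, 209.0 and 1007.8. It encodes no ion channel but was placed on the ion channel and excitability list. There it was the 1 member of 33 genes (3.03%, against 0.898% of all genes). Tmem176b and Tmem176a, neighbouring genes of related membrane proteins, were low together. Tmem176b had 37.2, 9.5 and 465.9, and Tmem176a had 23.4, 6.5 and 317.7. Fbxo39, an F-box protein gene, had 1440.4, 66.1 and 251.6. Rcn1, a calcium-binding protein of the endoplasmic reticulum, had 1105.2, 335.7 and 1109.4, and Elovl7, a fatty acid elongase, had 42.2, 12.2 and 42.5. In Sncg, Rcn1 and Elovl7 the other lines were almost equal. Fzd4, a Wnt receptor at the edge of the threshold, had 25.8, 10.7 and 21.4. It was the 1 member among 32 Wnt genes (3.12%, against 0.898% of all genes). The brightest lower gene was Plpp3, a lipid phosphatase, with 2610.1, 1259.5 and 3029.2. Prl2c3, with 1518.5, 602.7 and 1928.3, and Prl2c5, with 1474.8, 561.8 and 1942.6, are near-identical proliferin genes that their probes may not separate.

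Probes without a gene symbol included one with 63.5, 746.0 and 59.1 and one with 1028.5, 28.7 and 488.3, among the furthest apart in either direction. Other lists held no member: 27 cholesterol, 39 glycolysis and hypoxia, 30 Hox and limb patterning, 32 osteoblast and cartilage and 48 cytosolic ribosomal protein genes. Over all genes 0.863% were higher and 0.898% lower, and at these shares such short lists would hold few or no members. In all, 58 genes of the 29 function lists were members, 30 higher and 28 lower.

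Member genes lay mostly apart from each other on the chromosomes. Of 199 members placed in the order of 11315 compared genes, 2 neighbouring pairs were higher together, Ccl2 with Ccl7 and Rassf6 with Cxcl5, and 2 were lower together, Tmem176b with Tmem176a and Prl2c3 with Prl2c5. In 3 pairs the neighbours went opposite ways: Pnpla8 with Prkd1, Rb1 with Lpar6, and Odf3l1 with Cspg4. Lpar6, a receptor for lysophosphatidic acid whose gene lies within an intron of Rb1, had 42.9, 133.4 and 64.1, so it was highest where Rb1 was lowest. Chromosome 7 held 2 higher (0.22%) and 16 lower members (1.76%) among 908 compared genes. Chromosome 1 held 10 higher (1.6%) and 2 lower (0.32%) among 625. Over all genes the shares were 0.863% higher and 0.898% lower. Other chromosomes had like shares, such as 4 with 1.59% lower, 6 with 1.51% lower and 13 with 1.93% higher, so chromosomes 7 and 1 were not alone.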

How the data were processed

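RNA of 3 OP9 lines was hybridised to 1 one-colour array each. Per the labels' protocols, column-purified RNA was amplified with amino allyl nucleotides, labelled with Cy5 and fragmented as Toray prescribes. The deposited values are linear probe intensity, scaled by the authors to a median of 20 per array as the values show, with scanner, background correction and blank rule not given in the sources used here.

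log2 was taken of the deposited intensity without a constant or further scaling. Probes with a value on all 3 arrays (20775) and a mean log2 at or above the 25th percentile were compared. The platform table named 16631 probes with 1 symbol, of which 3947 were updated through RefSeq synonyms, and 6842 had none. Values of a gene's probes were averaged. With 1 array per line, no test was run, and the number of arrays limits the precision.

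Members and lists were chosen with earlier results of these data known. Named genes were the 25 furthest apart in each direction, up to 8 members per list and direction, the ends of lists without members, the 5 brightest members per direction and 3 genes on each side of the threshold, of which a selection is printed. The code of the selection rule was run on simulated arrays, with large differences planted in probes brighter than the median and little noise. That run checks the counting only and says nothing of members near the threshold or with dim readings. Software was Python 3.11.15, numpy 2.4.6, pandas 2.3.3, statsmodels 0.14.6 and matplotlib 3.10.9.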

Additional observations from a re-analysis of the deposited data

Results flagged for a closer look

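The comparison left out probes with a blank cell. Of these, 316 gave a reading in OP9-GFP alone, with a median intensity of 1.5, and 4 reached the limit for dim probes there while blank in OP9 and OP9-DL. They were a probe without a symbol at 27.2, another at 12.7, BC024139 at 8.1 and Atp13a4, a cation transporter gene, at 6.8. They are listed because a signal appeared in data that the comparison did not use.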

How the results depend on the processing

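Counts followed the limits more than the scaling. The 123 higher and 137 lower probes became 196 and 258 with no limit on dim probes, 528 and 504 at 1.5-fold, and 37 and 29 at 3-fold. A limit at the 50th percentile left 64 higher probes, and 67 of 102 named members, since 35 were no longer compared. List members numbered 171 at 1.5-fold and 18 at 3-fold, against 58. Quantile scaling gave 121 higher and 142 lower probes, median scaling 121 and 141, and lowess 115 and 141. Of the 102 named members, quantile scaling kept 98, and median scaling and lowess 96 each. A constant of 2 kept 95. Under a scaling, Chaf1b, Gclm, Mdm2, Plpp3, Psmg3, Fzd4, Fam110c, Xmr or 4632415L05Rik fell under 2-fold, and with the constant Il18, Rab6b, Atg4d, Ptprk, Fzd4, Fam110c and Xmr did. Mdm2 had -0.95 under median scaling and Il18 -0.95 with the constant. Median scaling moved the median difference from OP9 over the probes compared from 0.02 to 0.10. No named member changed direction under these alternatives. On all 3 arrays 86 higher and 107 lower probes reached the limit, and dim readings bound the folds of the rest.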

Other observations

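The converse of the probes seen in OP9-GFP alone was also counted: 450 probes were blank in OP9-GFP and had a value on both other arrays, of which 12 reached the limit on one of them. Abcc3, an organic anion exporter gene, had 23.6 in OP9 and 14.7 in OP9-DL. Gbp6, an interferon-induced guanylate-binding protein gene, had 23.5 in OP9 and 4.2 in OP9-DL.

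Some lower members outside the lists were chosen after their values were seen and stand for no group. Snrpn, an imprinted gene of a splicing protein, had an intensity of 247.3 in OP9, 42.4 in OP9-GFP and 104.0 in OP9-DL. Decr1, a mitochondrial enzyme of fatty acid breakdown, had 92.8, 25.5 and 51.7, and Acad10, of the acyl-CoA dehydrogenase family, had 87.8, 15.8 and 32.2. In these genes OP9 was highest and OP9-GFP lowest.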
